A study of Mus musculus with 24 samples.

Results

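Mouse mammary tumours whose sample code starts with the letter A were compared with tumours of 5 other origins, coded C, F, G, H and L. Per the labels, every sample was total RNA of mammary tumour tissue, called mammary mTDT, from a BALB/c host, and the code was assigned by tumour origin. The series held 24 libraries measured by NanoString barcode counting, which counts labelled probes for a fixed panel of transcripts. The comparison took the 16 libraries with over 100000 recovered counts, 3 of origin A and 13 of the other origins. Origin A was A0, classed in the labels as having an excluded immune infiltrate, and AF2-2797-1 and AF2-2797-2, both classed as inflamed. The 13 other libraries were 4 of origin C (2 excluded, 2 desert), 2 of F (desert), 3 of G (1 desert, 2 inflamed), 2 of H (inflamed) and 2 of L (inflamed). AF2-2846 and AF2-2956, both classed as inflamed, carried too few counts and served only as a check of abundant genes. No genotype, age or treatment is stated in the labels, and what 0 and F2 stand for in the codes is not explained there. The 2 AF2-2797 libraries share a code number and may not be separate tumours, so p-values measured only the spread between these samples.

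Epithelial cells adhere to each other through E-cadherin junctions and desmosomes, carry the adhesion molecule Epcam on their surface, and sit on a basement membrane built from laminins. In an epithelial-mesenchymal transition these genes are switched off by transcription factors of the Snail, Zeb and Twist families, and N-cadherin takes the place of E-cadherin. Mammary tumours range from epithelial to mesenchymal forms, and they also hold host macrophages, lymphocytes, vessels and fibroblasts whose RNA is part of a bulk measurement.

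Values below are log2 normalised counts as deposited, and differences are origin A minus the others on that scale. A background limit was set for each library from 75 genes as their mean plus 2 SD in that library. The same 75 genes served every library, namely those with the lowest mean recovered count over the well-counted libraries. In the well-counted libraries it lay between 1.67 and 4.32, and 471 to 613 of the 750 genes exceeded it. A0 held 1090063 recovered counts, AF2-2797-1 held 449997 and AF2-2797-2 held 283459, against 107677 to 1110314 in the others.

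The libraries of origin A were not alike. Over the 568 genes above the limit in at least 8 libraries, the AF2-2797 libraries had a Spearman correlation of 0.994 with each other. They correlated at 0.667 and 0.662 with A0, and at 0.536 to 0.676 and 0.539 to 0.675 with the 13 libraries of other origins. Their likeness to A0 thus lay within those ranges, near the top. A0 correlated at 0.760 to 0.836 with the 13 libraries of other origins, so its ranks lay nearer to theirs than to the other A libraries. The low-count AF2-2956 correlated at 0.868 and 0.872 with the AF2-2797 libraries and at 0.526 to 0.626 with the others. AF2-2846, in contrast, correlated at 0.471 and 0.472 with the AF2-2797 libraries and at 0.594 to 0.735 with the others, so the library labelled AF2-2846 went against its letter in these ranks. These correlations are across genes measured on a common panel, which are not independent replicates, and depth differed between the libraries. The counts of the AF2-2797 libraries differed by more than sampling noise (chi-square per degree of freedom of 2.20 over 738 genes), which does not show whether they are separate tumours, since repeat runs of 1 RNA can exceed counting noise too. They were counted as 2 libraries because the labels list them as 2 samples. If they are 1 tumour, the fit of 16 libraries counts it doubly and its p-values are too small, so where averaging them ended a call the averaged result is given as well.

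Limma called 178 of 750 genes (23.7%) between origin A and the other origins at a Benjamini-Hochberg adjusted p below 0.05, of which 73 (9.73%) were higher and 105 (14.0%) lower in A. When libraries of 1 code number were averaged, which leaves 2 codes of A against 12, 25 genes passed (3.33%), and all 25 were among the 178. Of these, 20 were higher in A (2.67%) and 5 lower (0.667%). Separation of all 3 A libraries from all 13 others occurred in 38 genes above (5.07%) and 11 below (1.47%). Most of the lower calls rested on the AF2-2797 libraries, since A0 lay within the range of the others for 89 of the 105 lower genes and for 35 of the 73 higher ones. Both AF2-2797 libraries lay outside the range of the others in 319 genes (42.5%), and A0 did in 175 (23.3%). Without A0, 302 genes (40.3%) passed, 105 higher (14.0%) and 197 lower (26.3%). A0 alone against the 13 others gave 11 (1.47%), with its spread assumed to be that of the other libraries.

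The balance between higher and lower calls moved with the scaling. The library median was 5.70 in A0, 4.56 and 4.63 in the AF2-2797 libraries, and 5.06 to 5.68 in the others. The median difference over all genes was -0.14 with the deposited values, 0.29 after recentring each library on its median over expressed genes, and -0.04 after quantile normalisation. Correspondingly 41.0% of the calls were higher in A with the deposited values, 61.9% after recentring, 48.7% after quantile normalisation and 59.3% with voom weights on recovered counts. All 73 higher genes passed again after recentring, and 67 of the 105 lower ones did.

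All 5 measured members of the epithelial adhesion and junction list were higher in origin A, beside 9.73% higher over all genes. Their median difference was 4.32, against -0.14 over all genes. The list has 26 members, and of those measured Epcam and Cdh1 were markers given with the comparison. Epcam, which encodes an epithelial cell adhesion molecule, stood at 10.96 in A0 and at 10.09 and 10.21 in the AF2-2797 libraries, while the others ran from 1.05 through a median of 2.90 to 4.39. Every A library lay above every other library, with a wide gap between them. The difference was 7.66 ± 0.55 (SE, limma adjusted p = 4.01e-08; 2.81e-06 with code numbers averaged), about 202-fold. Only 4 of the 13 others exceeded their background limit for Epcam, and with lower values set to the limit the difference was 7.33. Mean Epcam levels of the 5 other origins ran from 1.98 ± 0.46 (SD, n = 4) in C to 3.65 ± 1.06 (SD, n = 2) in H, so no other origin approached A.

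Cdh1, the gene of E-cadherin, was read at 3.40 in A0, at 7.15 and 7.36 in the AF2-2797 libraries, and at -1.54 to 3.48 with a median of 1.08 in the others. A0 overlapped the top of the other origins, and the AF2-2797 libraries stood well above them. None of the 13 others exceeded its limit for Cdh1, and A0 did, so the difference of 4.68 ± 0.84 (adjusted p = 0.00134; 0.0391 with code numbers averaged) is 3.28 with values set to the limit. Pkp3, a plaque protein of desmosomes, was 4.95 in A0, 8.06 and 8.03 in the AF2-2797 libraries and at most 4.30 in the others, a difference of 4.32 ± 0.66 (adjusted p = 0.000664). Prom1, which encodes a membrane glycoprotein of epithelial and progenitor cells, was 4.27 in A0, 5.92 and 6.04 in the pair and at most 3.07 elsewhere, a difference of 3.94 ± 0.64 (adjusted p = 0.000851). In both genes the groups did not overlap. Only 3 of the 13 others exceeded their limit for Pkp3 and 1 for Prom1. With values set to the limit the differences were 4.05 for Pkp3 and 2.62 for Prom1. Jup, the gene of plakoglobin, which links cadherins to the cytoskeleton, was 2.43 in A0, 4.03 and 4.13 in the AF2-2797 libraries, and 0.20 to 3.30 in the others. It passed (difference 2.24 ± 0.54, adjusted p = 0.00737) with A0 inside the range of the other origins, but not with code numbers averaged (adjusted p = 0.125). With values set to the limit its difference was 0.84 (adjusted p = 0.318).

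Proteins of the Snail and Zeb families are known to bind the E-box CACCTG, which reads CAGGTG on the other strand, in promoters of epithelial genes. The RefSeq promoter table (GRCm38.p6, 250 bases before to 50 after the start) was searched for this motif on both strands. Epcam's promoter, at chr17:87635729-87636028 on the plus strand, is printed because Epcam separated the groups most widely. It holds the motif in 2 places, beginning at bases -187 and -19 from the start, shown in capitals.
Epcam promoter: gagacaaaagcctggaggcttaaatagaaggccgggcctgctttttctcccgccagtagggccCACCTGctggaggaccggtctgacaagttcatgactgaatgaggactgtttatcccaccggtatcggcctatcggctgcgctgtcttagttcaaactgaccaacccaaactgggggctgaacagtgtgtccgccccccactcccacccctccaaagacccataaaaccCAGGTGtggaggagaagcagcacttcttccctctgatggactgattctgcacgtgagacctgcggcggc
Lamb3 has 2 entries in the table. The downstream one, at chr1:193301993-193302292 on the plus strand, holds the motif in 2 places, beginning at bases -6 and 5 from the start. The window upstream of it, at chr1:193301744-193302043, holds none.
Lamb3 promoter: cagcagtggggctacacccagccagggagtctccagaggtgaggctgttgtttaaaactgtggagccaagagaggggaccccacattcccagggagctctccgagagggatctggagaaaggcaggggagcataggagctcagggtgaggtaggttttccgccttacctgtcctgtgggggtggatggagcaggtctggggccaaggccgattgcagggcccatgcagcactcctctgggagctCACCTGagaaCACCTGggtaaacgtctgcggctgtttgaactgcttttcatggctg
The motif occurs in 20.2% of all 32851 promoters of the table and in 19.1% of the 697 promoters found for the analysed genes. Among the called genes with all 3 A libraries above the others, 25 matched the table, and 9 of their 35 promoters (25.7%) hold it. A match describes these letters only.

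Laminins and their partners made up the second group. Of 7 measured members of the laminin, hemidesmosome and basement membrane list, 5 were higher in origin A and none lower (median difference 3.78), beside 9.73% higher over all genes. With code numbers averaged 3 of them passed. Lamb3, the beta chain of the epithelial laminin found in hemidesmosomes, was 6.16 in A0 and 4.11 and 4.16 in the AF2-2797 libraries, against -1.10 to 2.93 with a median of 0.31 in the others. The groups did not overlap, A0 was highest, and none of the 13 others exceeded its background limit. Its difference was 4.26 ± 0.76 (adjusted p = 0.00134; 0.0170 with code numbers averaged), or 2.11 with values set to the limit.

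Lama1, the alpha chain of an embryonic and epithelial laminin, was 8.74 and 8.78 in the AF2-2797 libraries but 3.15 in A0, inside the 0.73 to 3.28 of the others (difference 4.81 ± 0.88, adjusted p = 0.00134). Col17a1, a collagen of hemidesmosomes, had the same split, with 8.23 and 8.32 in the pair, 2.27 in A0 and 0.47 to 3.90 in the others (difference 4.19 ± 0.97, adjusted p = 0.00632; 0.125 with code numbers averaged). Itga2, a subunit of a collagen receptor, stood at 4.99 in A0 and at 5.25 and 5.64 in the pair, above the 1.84 to 4.54 of the others (difference 1.73 ± 0.41, adjusted p = 0.00701; 0.103 with code numbers averaged). Col4a5 and Itga6 did not pass.

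**Figure D1:**
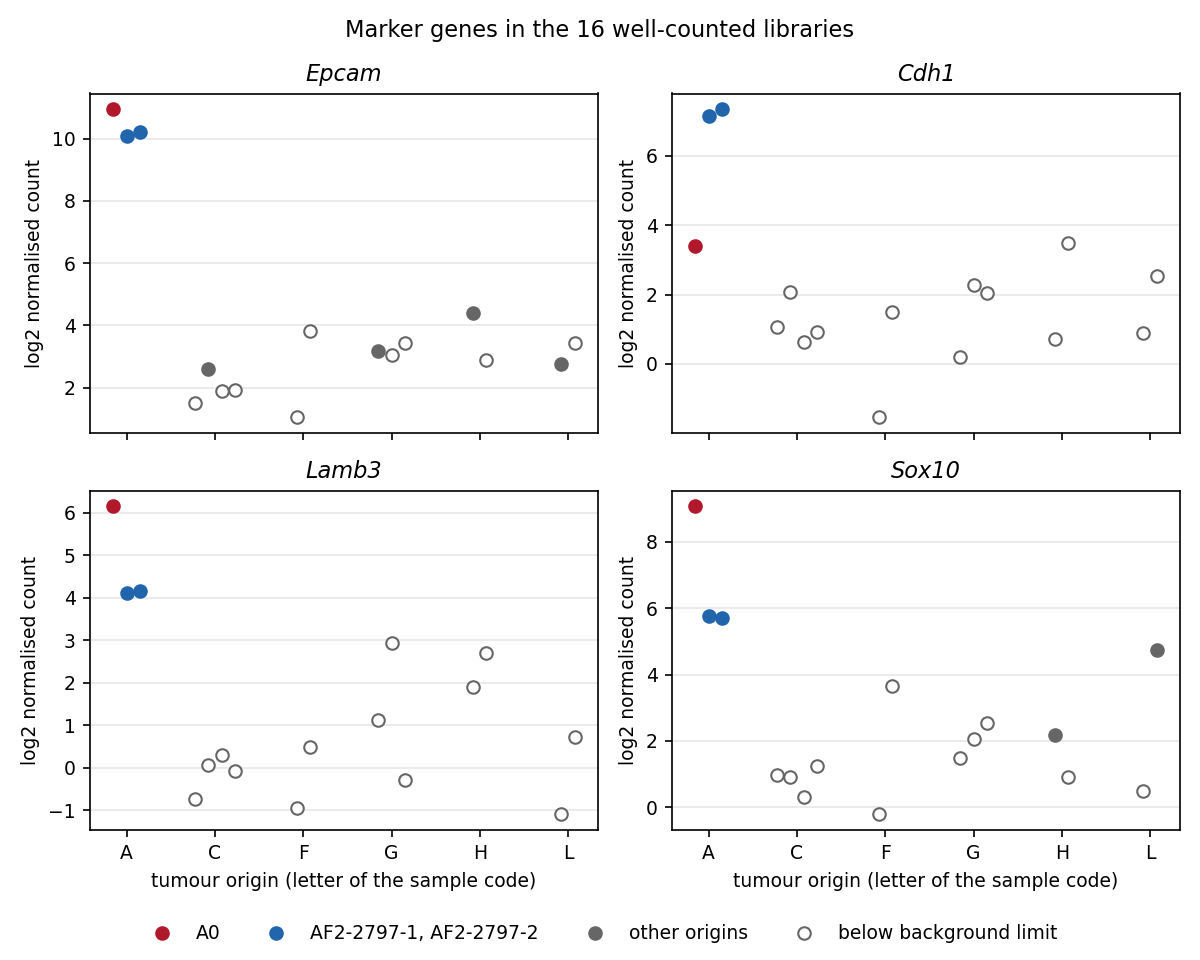
Log2 normalised counts of Epcam, Cdh1, Lamb3 and Sox10 in each well-counted library (1 point each), by tumour origin, with open points below that library's background limit. All 3 libraries of A lie above all 13 others for Epcam, Lamb3 and Sox10, whereas A0 (3.40) overlaps the highest other library (3.48) for Cdh1.

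For these 4 markers an exact 2-sided permutation test of the library labels gave p = 0.00357 for Epcam, Lamb3 and Sox10, the smallest value that 3 against 13 libraries allow, and 0.00714 for Cdh1 (0.00476 and 0.00714 adjusted over the 4). With code numbers averaged the exact p was 0.022 for Epcam, Lamb3 and Sox10, again the smallest possible, and 0.044 for Cdh1 (0.0293 and 0.044 adjusted). The 4 markers were given with the comparison and were not picked blind to these data. Their exact p-values therefore describe the separation and are no independent evidence for it. The adjustment covers the 4 markers only and not the other genes measured.

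Sox10, a transcription factor of the neural crest that in mice also marks mammary stem and progenitor cells, was 9.08 in A0 and 5.76 and 5.70 in the AF2-2797 libraries, against -0.22 to 4.73 with a median of 1.24 in the others. A0 was far above the rest, and the pair lay above the highest other library, which was of origin L. The difference was 5.21 ± 0.86 (adjusted p = 0.00101; 0.00858 with code numbers averaged). Only 2 of the other libraries exceeded their background limit for Sox10, and with values set to the limit the difference was 4.05. Ngfr, a nerve growth factor receptor carried by neural crest derivatives and basal epithelial cells, was 3.12 in A0, 4.98 and 5.30 in the pair and at most 2.81 in the others (difference 2.49 ± 0.45, adjusted p = 0.00134). For Ngfr too, only 2 of the other libraries exceeded their limit. With values set to the limit its difference was 1.72 (limma adjusted p = 0.0294). Sox2, a transcription factor of pluripotent and neural progenitor cells, went the other way. It was 1.53, 1.33 and 2.24 in A, below background in all 3 libraries, and 3.71 to 8.99 with a median of 6.47 in the others, each above background. Its difference was -5.18 ± 0.93 (adjusted p = 0.00134), or -3.72 with values set to the limit.

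Among 4 measured ERBB receptors and ligands 1 passed, beside 9.73% higher over all genes. This was Erbb2, an epithelial growth factor receptor and breast cancer oncogene. It was 4.52 in A0 and 3.86 and 3.83 in the AF2-2797 libraries, above the 1.27 to 3.07 of the others (difference 1.73 ± 0.35, adjusted p = 0.00308). Only 5 of the 13 others exceeded their limit for Erbb2, and with values set to the limit it did not pass (difference 1.13, adjusted p = 0.0640). Egf, a ligand of the epidermal growth factor receptor, was 4.66 and 4.85 in the pair and 1.71 in A0, against 0.92 to 4.07 elsewhere (adjusted p = 0.0959). Of the keratin and luminal or basal lineage list, 4 of 21 members were measured, Esr1, Kit and Prlr among them. Only Prlr passed, higher in A, beside 9.73% higher over all genes. The prolactin receptor gene Prlr rested on A0, which read 6.75, whereas the pair read 2.70 and 2.54, below their limits and within the -0.69 to 3.05 of the others (adjusted p = 0.0276; 0.0806 with code numbers averaged).

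Mesenchymal genes were lower, mostly through the AF2-2797 libraries. Of the 9 measured members of the epithelial-mesenchymal transition list, 7 were lower in A and none higher (median difference -1.79), beside 14.0% lower over all genes. With code numbers averaged only Cdh2 passed. Cdh2, the gene of N-cadherin, was 3.62 in A0 and 4.75 in both AF2-2797 libraries, against 6.04 to 7.39 in the others. All 3 A libraries lay below all others, with A0 the lowest, and the difference was -2.12 ± 0.33 (adjusted p = 0.000734; 0.00548 with code numbers averaged). Zeb1, a repressor of E-cadherin, was 6.20 in A0, 4.97 and 4.85 in the pair and 6.346 to 7.995 in the others (difference -1.71 ± 0.34, adjusted p = 0.00292; 0.0669 with code numbers averaged). Its relative Zeb2 was 4.79 and 4.69 in the pair, with A0 at 6.32 inside the 5.99 to 8.41 of the others (adjusted p = 0.0123; 0.152 with code numbers averaged).

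Twist1, a transcription factor of mesenchymal cells, was 4.97 and 5.02 in the AF2-2797 libraries and 8.18 to 9.38 in the others, while A0 read 9.21 (adjusted p = 0.0146; 0.228 with code numbers averaged). Axl, a receptor tyrosine kinase of mesenchymal tumour cells and macrophages, was 8.68 in A0 and 6.85 and 7.10 in the pair, with the others from 8.41 to 10.28 (difference -1.79 ± 0.45, adjusted p = 0.00999; 0.143 with code numbers averaged). For 5 of the 7 genes A0 lay within the range of the other origins, and only Cdh2 and Zeb1 were below it in all 3 libraries. The mean level of the list was 6.31 in A0, 4.60 and 4.65 in the pair and 6.36 to 7.36 in the others. Snai1 and Cdh11 did not pass. Cdh11, a mesenchymal cadherin gene, was not lower, at 5.50 in A0 and 4.02 and 4.07 in the pair, against 1.63 to 5.12 in the others. After recentring 6 of the 7 passed again, and Twist2 did not, nor did it with values set to the limit (adjusted p = 0.142).

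**Figure D2:**
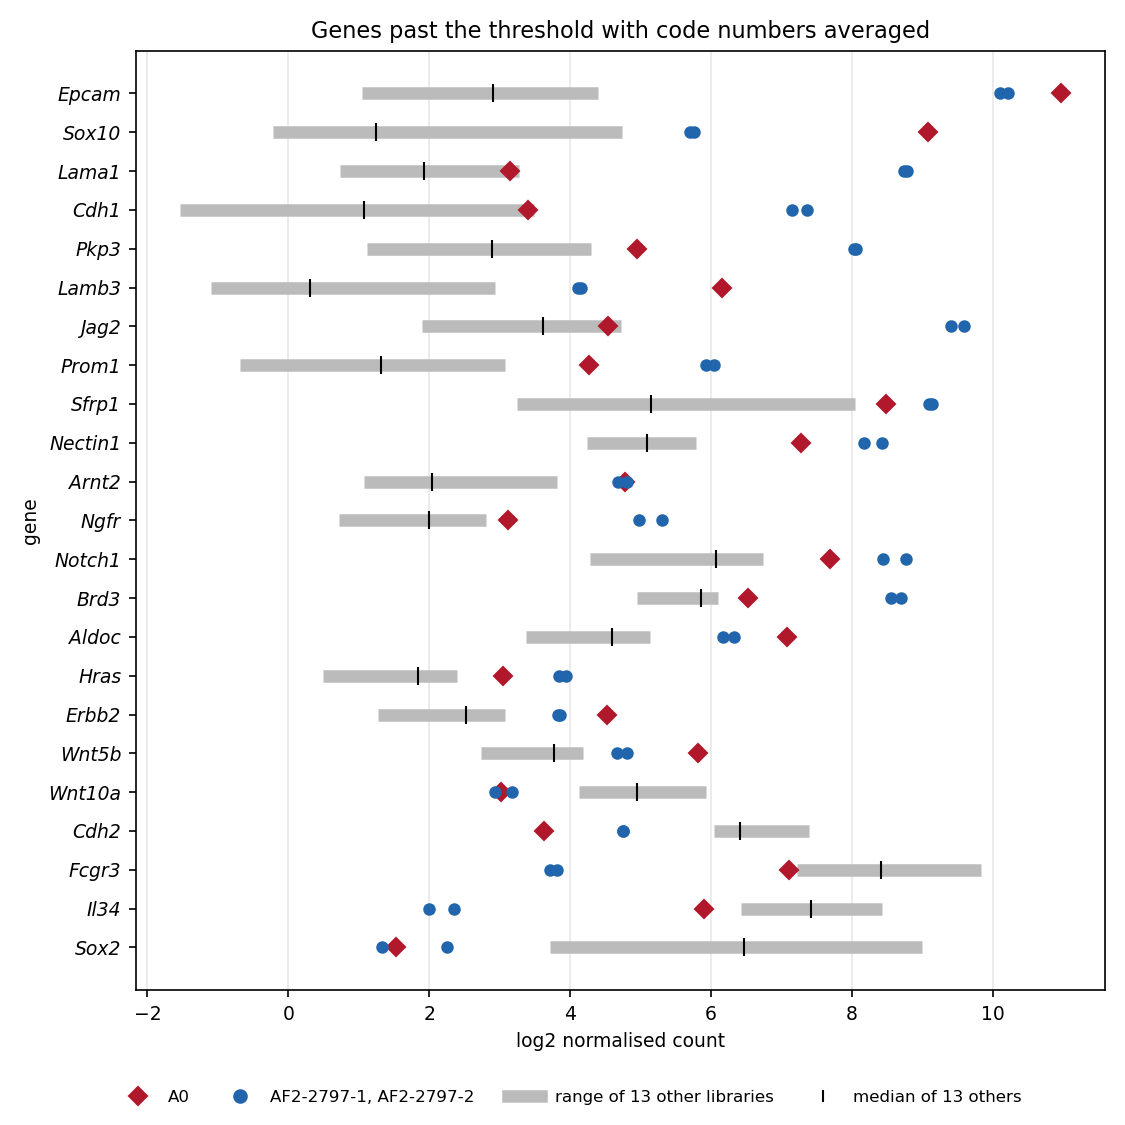
Log2 normalised counts of 23 of the 25 genes past the threshold when libraries of 1 code number were averaged. Red diamonds are A0, blue points the AF2-2797 libraries, grey bars the range of the 13 other libraries and black ticks their median. For 20 of the 23 genes all 3 A libraries lie outside the grey bar, and for Lama1, Cdh1 and Jag2 A0 lies inside it.

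The 25 code-averaged calls hold 4 epithelial adhesion genes, 3 laminin chains, Sox10 and Ngfr, which were higher, and Sox2, which was lower. They also hold 5 genes of the Wnt, Notch, Hedgehog and FGF list. On that list 5 of 29 measured members were higher and 2 lower (median difference 0.64), beside 9.73% and 14.0% over all genes. Sfrp1, a secreted inhibitor of Wnt ligands, was 8.49 in A0 and 9.09 and 9.14 in the AF2-2797 libraries, above the 3.24 to 8.04 of the others (difference 3.86 ± 0.71, adjusted p = 0.00134). Notch1, a receptor of the Notch pathway, was 7.69 in A0 and 8.44 and 8.77 in the pair, above the 4.29 to 6.73 of the others (difference 2.41 ± 0.46, adjusted p = 0.00197). Jag2, a ligand of Notch receptors, was 9.40 and 9.58 in the pair, whereas A0 at 4.53 lay inside the 1.89 to 4.73 of the others.

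Wnt ligands went in both directions. Wnt5b was 5.81 in A0, 4.67 and 4.81 in the pair and at most 4.18 in the others, and Wnt11 was 3.55, 3.81 and 4.13 with at most 3.43 in the others. Wnt11 passed (adjusted p = 0.00532) but did not with code numbers averaged (0.0740) or with values set to the limit (0.123). Wnt10a was 3.02 in A0 and 3.17 and 2.94 in the pair, below the 4.12 to 5.93 of the others (difference -1.98 ± 0.37, adjusted p = 0.00134). Notch2, a second receptor, was lower only through the pair, at 4.74 and 4.92 against 7.11 in A0 and 6.34 to 8.37 in the others (adjusted p = 0.0133; 0.200 with code numbers averaged).

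Besides Erbb2 and Cdh2, the remaining code-averaged calls included Nectin1, Brd3, Arnt2, Hras, Aldoc, Il34 and Fcgr3, some of which, with the genes outside the lists, were chosen for naming after their values were seen. Hras did not pass with values set to the limit (adjusted p = 0.248). Nectin1, an adhesion molecule of adherens junctions, was 7.27 in A0 and 8.18 and 8.42 in the AF2-2797 libraries, above the 4.24 to 5.79 of the others (difference 2.86 ± 0.38, adjusted p = 0.000137). Its relative Nectin2 was 6.53, 7.47 and 7.59, above the 4.30 to 6.28 of the others (adjusted p = 0.00263; 0.0604 with code numbers averaged). Brd3, a bromodomain protein that reads acetylated histones, was 6.52, 8.55 and 8.69 in A and at most 6.10 in the others, and the helix-loop-helix factor gene Arnt2 was 4.77, 4.80 and 4.67 against at most 3.81. Aldoc, a glycolytic aldolase, was 7.08 in A0 and 6.17 and 6.32 in the pair, above the 3.37 to 5.13 of the others. It was the 1 gene of 19 on the hypoxia and glycolysis list to pass, beside 9.73% higher over all genes. Il34, a ligand of the receptor that keeps macrophages alive, was 5.89 in A0 and 2.00 and 2.35 in the pair, below the 6.42 to 8.43 of the others (difference -3.81 ± 0.61, adjusted p = 0.000794).

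By the naming rule, 2 further genes stood out for spread. Id4, an inhibitor of helix-loop-helix transcription factors that mice use in basal mammary cells, was 10.84 and 10.94 in the pair and 7.93 in A0, while the others ran from 1.24 to 9.55 with a median of 3.28. A0 lay inside that wide range, and the difference of 5.05 ± 1.63 had an adjusted p of 0.0331, or 0.157 with code numbers averaged. Ptgs2, an inducible cyclooxygenase, was 1.56 and 1.87 in the pair, below their limits, and was 7.998 in A0 and 6.757 to 12.262 in the others (difference -5.25 ± 1.15, adjusted p = 0.00499; 0.115 with code numbers averaged). Vcan, a matrix proteoglycan named here after its values were seen, was 9.88 in A0 and 11.01 and 11.16 in the pair, above the 5.49 to 9.48 of the others (adjusted p = 0.00499; 0.0817 with code numbers averaged).

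**Figure D3:**
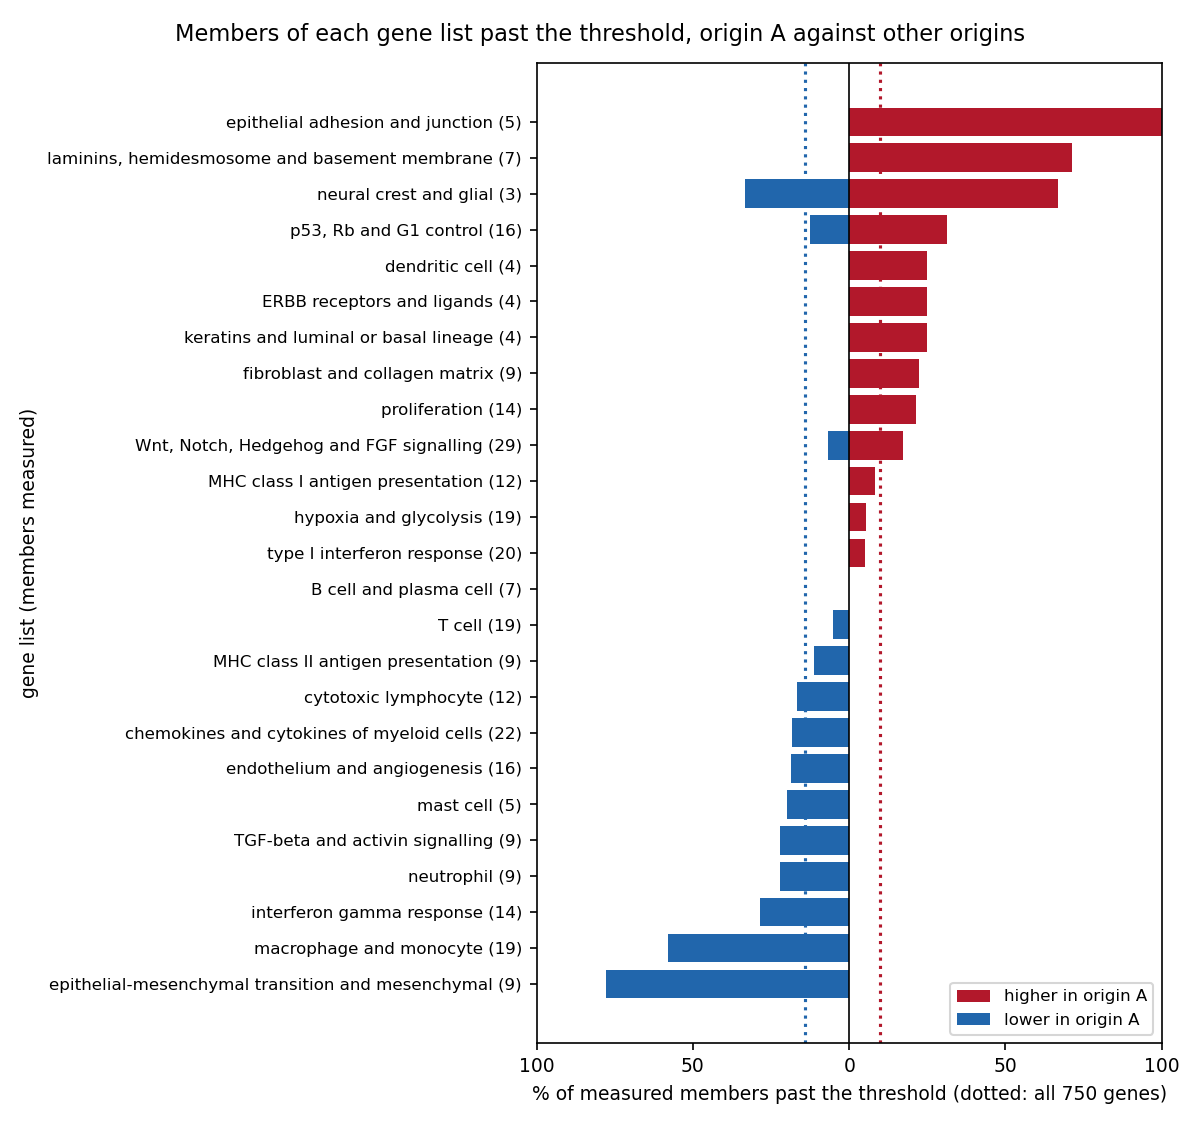
Share of the measured members of each gene list (number in brackets) that passed higher (red) or lower (blue) in origin A, with dotted lines at the share over all 750 genes, 9.73% higher and 14.0% lower. The epithelial list reaches 5 of 5 higher, the mesenchymal list 7 of 9 lower and the macrophage list 11 of 19 lower.

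Macrophage genes were lower as well. Of the 19 measured members of the macrophage and monocyte list, 11 were lower in A and none higher (median difference -2.12), beside 14.0% lower over all genes. Fcgr3, an activating antibody receptor, was 7.10 in A0, 3.81 and 3.71 in the AF2-2797 libraries and 7.22 to 9.83 in the others. All 3 A libraries lay below all others, A0 by a small margin, with a difference of -3.52 ± 0.65 (adjusted p = 0.00134; 0.0490 with code numbers averaged). Cd68, a lysosomal protein of macrophages, was 5.86 and 5.71 in the pair and 7.65 to 9.57 in the others, with A0 at 8.04 among them (difference -2.32 ± 0.46, adjusted p = 0.00285; 0.0772 with code numbers averaged). Adgre1, the gene of a surface antigen used to mark mouse macrophages, was 4.56 and 4.38 in the pair, 6.97 in A0 and 6.31 to 9.20 in the others (adjusted p = 0.00632; 0.125 with code numbers averaged). In bulk tissue fewer cells of a type and less RNA per cell cannot be told apart.

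The complement genes C1qa and C1qb, the scavenger receptor gene Mrc1, the integrin gene Itgam, the antibody receptor genes Fcgr1 and Fcgr4, and Cd84 and Ms4a4a were the other members lower in A. A0 lay within the range of the other origins for 10 of the 11, and only Fcgr3 passed with code numbers averaged. The mean level of the list was 5.72 and 5.78 in the AF2-2797 libraries, both classed as inflamed, whereas the 6 inflamed libraries of other origins lay between 7.19 and 9.62. A0, classed as excluded, read 7.45, and the 2 excluded libraries of origin C read 8.50 and 8.52. With the infiltrate class as a block all 11 passed, and after recentring 9 did.

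**Figure D4:**
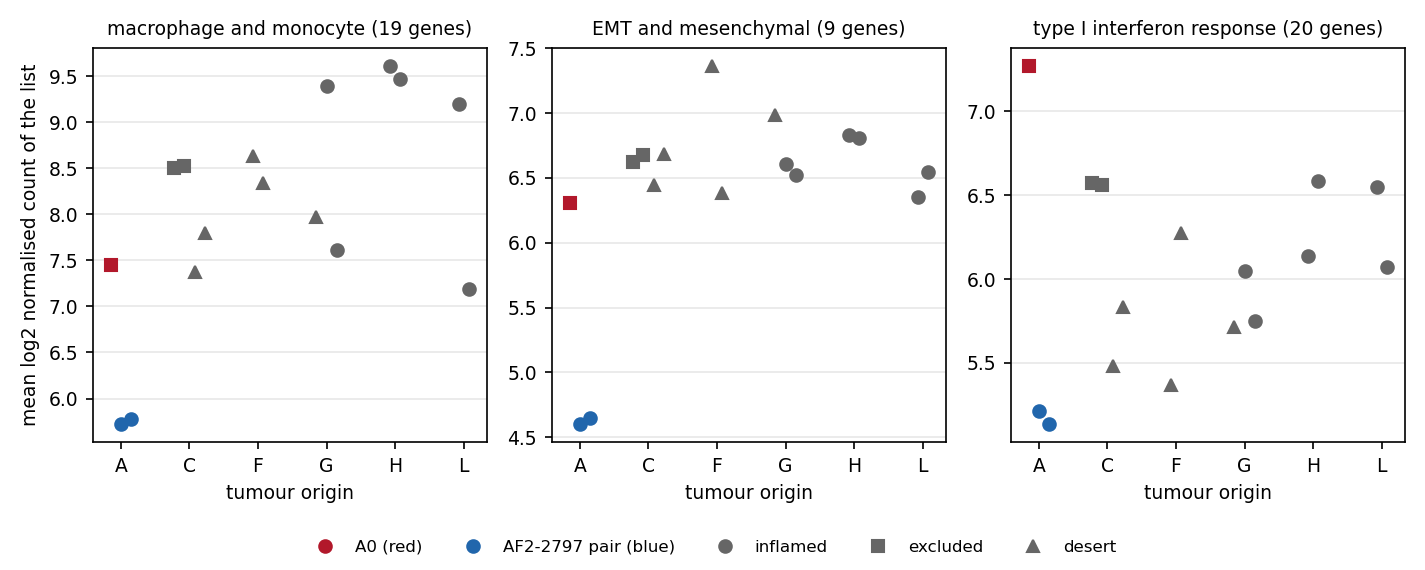
Mean log2 normalised count of the macrophage and monocyte, mesenchymal, and type I interferon response lists in each well-counted library, by origin, with shapes for the infiltrate class. The AF2-2797 libraries (blue) are lowest in all 3 panels, as they are over the 568 expressed genes (5.45 and 5.51 against 5.89 to 6.64 in the others), and A0 (red) is at 7.45, 6.31 and 7.27.

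Calls in the other immune lists are read beside the 9.73% higher and 14.0% lower over all genes, and no call named from these lists below passed with code numbers averaged. Of 9 neutrophil genes Il1r2 and Fpr1 were lower, but neither passed after recentring or with values set to the limit (adjusted p = 0.0503 and 0.555). S100a9, a calcium-binding protein abundant in neutrophils, did not pass (9.40 in A0, 3.92 and 4.30 in the pair, 5.97 to 11.51 in the others). Il2ra was lower among 19 T cell genes, but with values set to the limit its difference was 0.02. Klrk1 and Ncr1 were lower among 12 cytotoxic lymphocyte genes, both below background in all 3 A libraries. None of the 7 B cell genes passed. Of 5 mast cell genes Cpa3 was lower, with every A library below its limit. None of these T cell, cytotoxic lymphocyte and mast cell calls passed after recentring or with values set to the limit. Among 4 dendritic cell genes the transcription factor gene Batf3 was higher, at 5.33 in both AF2-2797 libraries and 3.02 in A0, against 1.41 to 4.15 in the others. Of 22 myeloid chemokine and cytokine genes 4 were lower, namely Ptgs2, Ccl9, Cxcl5 and Cxcl3. Cxcl5 and Cxcl3 passed neither after recentring nor with values set to the limit.

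The type I interferon response list divided A0 from the AF2-2797 libraries. The mean level of the 20 type I interferon response genes was 7.27 in A0, above the 5.37 to 6.58 of the others, and 5.21 and 5.13 in the pair, below them. The pair was also below the others over all 568 expressed genes, with means of 5.45 and 5.51 against 5.89 to 6.64. The pair's median difference was -0.65 over the list and -0.78 over the expressed genes, so its low list level was no lower than that of these genes at large. The list's median difference over the 3 A libraries was -0.05, or 0.37 after recentring. Stat2, a signalling factor of the type I interferon receptor, was 7.81 in A0, 3.36 and 3.30 in the pair and 5.70 to 7.56 in the others. A0 lay above and the pair below every other library, so no difference passed over the 3 together (adjusted p = 0.0614). Mx1, an antiviral GTPase, was the 1 member to pass, at 6.20 in A0 and 6.84 and 6.46 in the pair, above the 4.10 to 5.81 of the others (difference 1.47 ± 0.32, adjusted p = 0.00451; 0.0740 with code numbers averaged).

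Of 14 interferon gamma response genes 4 were lower, Irf1, Irf8, Gbp2 and Ifngr2, and none higher, beside 14.0% lower over all genes. None of the calls in the interferon gamma and MHC lists passed with code numbers averaged. Gbp2, an interferon-induced GTPase, was 3.70 and 3.87 in the pair against 6.98 to 8.69 in the others, and A0 at 8.71 stood just above that range. Irf1, an interferon-induced transcription factor, was 5.30 and 5.31 in the pair, with A0 at 8.64 inside the 7.58 to 9.30 of the others. Among 12 MHC class I genes Nlrc5, their transactivator, was higher, at 7.15 in A0 and 6.96 and 7.06 in the pair, where the others ran from 4.39 to 7.18. Ctss, a protease of the class II pathway, was the 1 of 9 class II genes to pass, lower in the pair (6.91 and 6.66) and at 10.27 in A0 within the 9.10 to 12.21 of the others.

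Of 14 measured proliferation genes Mki67, Kif2c and Cep55 were higher in A and none was lower, beside 9.73% higher over all genes. In all 3 the groups did not overlap. Mki67, a marker of cycling cells, was 10.28 in A0 and 10.65 and 10.69 in the pair, above the 8.840 to 10.004 of the others (difference 1.15 ± 0.29, adjusted p = 0.0107). Kif2c, a mitotic kinesin, was 6.12, 7.16 and 7.25, above the 5.24 to 5.89 of the others, and Cep55, a protein of cell abscission, was 6.73, 6.60 and 6.69 against at most 6.44. The differences were close to 1 log2 unit, and none of these genes passed with code numbers averaged.

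The 16 measured genes of p53, Rb and G1 control held 5 higher and 2 lower, all of them through the AF2-2797 libraries, with A0 inside the range of the others each time. Over all genes 9.73% were higher and 14.0% lower, and none of these 7 passed with code numbers averaged. Trp53, which encodes p53, was 9.25 and 9.53 in the pair, 6.79 in A0 and 6.23 to 7.72 in the others (difference 1.61 ± 0.46, adjusted p = 0.0180; 0.242 averaged). Mdm2, the ubiquitin ligase of p53, was 9.09 and 9.15 in the pair, 5.63 in A0 and 4.94 to 6.57 in the others (difference 2.19 ± 0.55, adjusted p = 0.00897; 0.163 averaged). Cdkn2a and Cdkn2b, inhibitors of the G1 kinases, were lower in the pair, Cdkn2a at 6.18 and 6.17 against 8.62 in A0 and 8.209 to 11.003 in the others. The cyclin gene Ccnd2 and the transcription factor gene E2f3 were also higher.

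Of 9 fibroblast and collagen genes Col5a1 and Col11a1 were higher, beside 9.73% over all genes, and no call in the stromal lists passed with code numbers averaged. Col11a1, a fibrillar collagen, was 7.95 in A0 and 5.79 and 5.60 in the pair, within or above the 2.50 to 6.90 of the others (adjusted p = 0.0394; 0.140 averaged). Of 16 endothelial and angiogenic genes Vegfc, Angpt1 and Angptl4 were lower, with A0 inside the range of the others for each, beside 14.0% lower over all genes. After recentring only Vegfc passed. Tgfbr2, a receptor of TGF-beta, and Inhba, a subunit of activin, were lower among 9 genes of that pathway, Tgfbr2 at 5.01 and 5.13 in the pair, 8.12 in A0 and 6.96 to 9.02 in the others. Inhba did not pass with values set to the limit (adjusted p = 0.0647). Neither of the 2 measured adipose genes, Cd36 and Pparg, passed.

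Several of the largest lower differences lay outside the lists and repeated the split between A0 and the pair, and none of those named here passed with code numbers averaged. Fcgr2b, an inhibitory antibody receptor of myeloid and B cells, was 6.30 and 6.24 in the pair, 9.44 in A0 and 9.05 to 12.03 in the others (difference -2.99 ± 0.71, adjusted p = 0.00701; 0.125 averaged). Fosl1, a subunit of the AP-1 transcription factor, was 2.75 and 2.71 in the pair, below their limits, and 6.16 in A0 among the 5.78 to 8.60 of the others. Ghr, the growth hormone receptor gene, was 3.63 and 4.04 in the pair and 7.27 in A0, and Gas1, a growth arrest gene, was 6.55 and 6.42 in the pair and 9.25 in A0. Cxcl16, a chemokine on macrophages and other cells, was 4.69 and 4.54 in the pair and 8.88 in A0, inside the 7.62 to 10.45 of the others.

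A0 taken alone differed from the 13 others in 9 genes that were higher (1.20%) and 2 that were lower (0.267%) by limma. Among the higher genes were Epcam (difference 8.20), Sox10 (7.45), Lamb3 (5.61), Prlr (5.40), Col11a2 (3.27), Aldoc (2.69), Mfge8 (2.22) and Wnt5b (2.19), and the lower ones were Cdh2 (-2.87) and Tigit (-4.69). The same genes in the AF2-2797 libraries against the same 13 libraries gave 7.39 for Epcam, 4.10 for Sox10, 3.59 for Lamb3 and -1.74 for Cdh2. Mfge8, a milk fat globule protein, was 9.52 in A0 and 6.08 and 6.27 in the pair, which lay below the 6.69 to 8.06 of the others. The 2 sets of differences share their 13 comparison libraries.

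The low-count libraries of origin A gave differing readings. AF2-2956 held 21786 counts and a background limit of 5.14, AF2-2846 held 11497 counts and a limit of 6.61. In AF2-2956 Epcam was read at 175 counts (9.21), Sfrp1 at 118 counts (8.64), Jag2 at 89 (8.23), Vcan at 438 (10.53) and Id4 at 262 (9.79), all above its limit. Of the other markers, Cdh1 had 14 counts (5.57) and Sox10 16 (5.76), above the limit, and Lamb3 had 5, below it. In AF2-2846 Epcam had 15 counts (6.86), just above the limit, and Id4 had 20 (7.28), also above it. Sfrp1 had 7 counts there, Jag2 10 and Vcan 2, all below it. Cdh1, Lamb3 and Sox10 were below that limit too. Sox2, low in the well-counted A libraries, had 19 counts (7.20) in AF2-2846, above the limit, and 8 (4.76) in AF2-2956, below it. Among the low-count libraries of other origins, Epcam exceeded the limit in none. Jag2 exceeded it in HF2-2957 (8.58) and HF2-2966 (7.43), and Sfrp1 in HF2-2957 (8.24) and GF2-2958 (5.84). Vcan did so in LF2-5249 (9.64) and GF2-2958 (7.22), and Id4 (7.93) and Sox10 (6.93) in LF2-5249.

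A called gene counted as readable in a low-count library when the means of A and of the others still differed by at least 1 log2 unit after values under that library's limit were set to it. Over these genes, 34 of 46 higher genes in AF2-2956 stood nearer to the mean of A than to that of the others, as did 0 of 19 in AF2-2846. In the 6 low-count libraries of other origins that count ran from 0 of 6 to 9 of 38. For lower genes 70 of 71 were nearer to A in AF2-2956 and 24 of 39 in AF2-2846. Of the other origins, GF2-2958, whose limit of 5.53 was nearest to that of AF2-2956, gave 13 of 62. LF2-5249 gave 37 of 38, HF2-2966 25 of 26, and CF2-2819-1, CF2-2819-2 and HF2-2957 all of theirs. The library's own value, if under its limit, was set to the limit as well. A higher gene under the limit was thus always nearer to the others, and a lower gene always nearer to A. Depth differed between these libraries, so these counts do not by themselves separate the origins. Of the readable genes that also passed with code numbers averaged, AF2-2956 was nearer to A in 13 of 15 and AF2-2846 in 1 of 8. Among low-count libraries of other origins, GF2-2958 was nearer to A in 3 of 13, LF2-5249 in 1 of 8 and HF2-2966 in 1 of 4. The rest were nearer to A in none. Whether AF2-2846 carries a wrong code was not tested.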

How the data were processed

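Total RNA extracted with Trizol was measured by NanoString barcode counting in 24 libraries, per the labels. The authors deposited 1 log2 value per gene and library, which is log2 of a whole barcode count (within 0.001, for 100% of values) times a factor that is constant in each library. How that factor was set, whether background was subtracted and which software was used is not stated in the labels. Of 784 table rows, 34 hold no value (14 control probes, 20 genes), which leaves 750 genes. Whole counts were recovered with the largest such factor, which gives the smallest counts. Their total over the 750 genes was taken as depth, with 100000 as the minimum for a well-counted library.

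The comparison of origin A with the others used the moderated test of limma 3.58.1 (R 4.3.3) on the log2 values, with no covariate, 2-sided, adjusted by Benjamini-Hochberg over 750 genes at a threshold of 0.05, and the 4 markers by exact permutation in scipy 1.17.1. The fit was tested on simulated data with independent noise in each library. That test cannot show how the fit behaves when libraries share a code number. Named genes were the 4 markers, the 12 largest passing differences in each direction that met a background condition (the limit exceeded in all 3 A libraries for higher genes, in at least 7 of the 13 others for lower ones), and up to 3 members of each of 27 lists (493 genes, 295 measured, none for skeletal muscle) with the smallest p. The members and lists were chosen with earlier results of these data known. Promoters come from RefSeq's table for GRCm38.p6, which held 547 of the 750 genes. Alternatives covered repeat codes, origins, infiltrate class, code series, libraries, scaling, low values, variance and voom weights. Limits cover background and counting error only. Some genes that the rule would name are not reported here.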

Additional observations from a re-analysis of the deposited data

Results flagged for a closer look

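Of the 750 genes, 69 (9.20%) passed limma's test of whether the difference between origin A and the others was itself different in F2 codes and 0 codes, a test added after the 3 A libraries were seen to differ. It therefore restates that split and gives no independent support for it, and it counts the AF2-2797 pair as 2 libraries. With code numbers averaged, 15 genes (2.00%) passed, with 1 A value in each series and the spread taken from the other origins. Origin A has only A0 among the 0 codes, so code series and the single tumour cannot be told apart. For 12 named genes this interaction passed, and the values below are the difference in F2 codes less that in 0 codes. It was positive for Jag2 (5.54), Lama1 (4.91), Mdm2 (3.13) and Cdh2 (1.75). In Cdh2 origin A was lower in both series, by less in F2 codes. It was negative for Gbp2 (-5.61), Stat2 (-4.41), Cxcl16 (-4.24), Inhba (-4.23), Irf1 (-3.53), Col11a2 (-3.43), Il34 (-3.23) and Ifi35 (-2.32). Of the 12, 4 passed with code numbers averaged, Jag2, Gbp2, Stat2 and Irf1. For Jag2 the difference was 0.49 in 0 codes and 6.02 in F2 codes, and for Lama1 1.55 and 6.46. The interaction did not pass for the 4 markers, with adjusted p of 0.780 for Epcam, 0.292 for Cdh1, 0.369 for Lamb3 and 0.102 for Sox10.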

How the results depend on the processing

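The 178 calls (73 higher, 105 lower) depended most on how the AF2-2797 libraries were counted. They became 25 (20 and 5) with code numbers averaged, 20 (15 and 5) with code number as a random block (correlation 0.966), and 108 (47 and 61) with libraries averaged by origin. A0 alone gave 11 (9 and 2). Inflamed libraries only gave 290 (198 lower), F2 codes only 279 (180 lower), and all 24 libraries 48 (12 and 36). Recentring left 67 lower and quantile normalisation gave 114 higher. Leaving out each library gave 27 to 302 calls, 22 to 105 higher and 5 to 197 lower. They were 302 without A0, 29 without AF2-2797-1 and 27 without AF2-2797-2. The 4 markers kept their direction in every alternative run, with differences when 1 library was left out of 7.39 to 7.82 for Epcam, 3.98 to 5.96 for Cdh1, 3.59 to 4.61 for Lamb3 and 4.10 to 5.79 for Sox10. Their limma adjusted p over all alternatives ran from 1.21e-11 to 0.00176 for Epcam, 5.97e-05 to 0.557 for Cdh1, 2.17e-06 to 0.0662 for Lamb3 and 1.79e-06 to 0.102 for Sox10. Cdh1 did not pass with A0 alone, a random block or all 24 libraries, and Lamb3 and Sox10 did not with all 24. Over all alternatives the named genes that had passed kept call and direction in 1906 values, lost the call in 396 and reversed in 8. Those that had not passed changed direction in 21 and newly passed in 83. With A0 alone the reversed values were Cxcl16 0.12, Angptl4 0.21, Stat2 1.28, Ifi35 0.61, Gbp2 0.88, Irf1 0.43, Cxcl5 0.41, Inhba 0.65, Mdm2 -0.14, Esr1 -0.46, Egf -0.52, Areg 0.37, Cd28 -0.39, Blk -0.0156, S100a9 0.61, Ms4a2 0.0873 and Smad5 -0.0109. With all 24 libraries they were Kit -0.20, Esr1 -0.28 and Pparg -0.0376, and with inflamed libraries only Kit -0.39. Esr1 was -0.0389 with the infiltrate class as a block, and -0.0273 to 0.52 over the libraries left out, lowest without AF2-2797-2 and highest without A0. With AF2-2956 added, Esr1 was -0.0697, Ms4a1 0.14 and Ms4a2 0.48, and with values set to the limit Il2ra was 0.0211, Ms4a1 0.44 and Ms4a2 0.46. The cause of these changes was not tested. A0 alone, AF2-2956 added and the filter for genes above the limit in at least 8 libraries were chosen after seeing the data. Centring on housekeeping genes was not run, since fewer than 3 have values. No paired analysis was possible because replicates were numbered by accession order within an origin, which pairs no libraries of different origins. Depth limits values under the background limits, which reach 8.40 in the low-count libraries.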
